A study of Mus musculus with 2 samples.

Results

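The genes described here are those of oxidative phosphorylation, the 102 of 32285 genes in the deposited gene table whose symbols name a subunit of the respiratory chain or of ATP synthase, or a close relative of one. They were chosen by symbol alone (Ndufa, Ndufb, Ndufc, Ndufs and Ndufv genes, Sdha to Sdhd and Sdhaf genes, Uqcr, Cox4 to Cox8 and Atp5 genes, and mt-Nd, mt-Co, mt-Atp and mt-Cytb), a rule that uses no measured value. Of these, 89 are nuclear and 13 mitochondrial. The nuclear genes comprise 36 of complex I, 4 of complex II, 8 of complex III, 18 of complex IV and 17 of complex V, with Ndufa4 counted in complex IV, and 6 others (the assembly factors Sdhaf1 to Sdhaf4, the supercomplex factor Cox7a2l and Ndufa4l2). The symbols leave out a few true subunits, such as Ndufab1 and Cyc1, and the electron carrier cytochrome c (Cycs), which are given apart.

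The respiratory chain passes electrons from NADH (through complex I) and succinate (through complex II) by way of complex III and cytochrome c to oxygen at complex IV. The proton gradient this builds drives complex V, the ATP synthase. Complex II is encoded in the nucleus alone, while the other complexes join nuclear subunits to a core encoded on mitochondrial DNA, which is transcribed from both strands into long precursors and cut into messages. Some nuclear subunits of complex IV have paired isoforms, such as Cox4i1 and Cox4i2, one ubiquitous and the other limited to a tissue or condition. Naive mouse embryonic stem cells are known to use respiration alongside glycolysis, and cells leaving that state to rely more on glycolysis.

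The series holds 2 libraries of R1 cells, a line of mouse embryonic stem cells, made by 10x Genomics 3′ single-cell RNA sequencing, with 1 library per condition. Both cultures were grown for 72 hours in N2B27 medium with the cytokine LIF and with BMP4. The LB culture received nothing further and grew on gelatin. The LBPXRS culture grew on fibronectin and also received PD0325901, an inhibitor of MEK, Xav939, an inhibitor of tankyrase in the WNT pathway, SB431542, which blocks the receptors of NODAL and activin, and resorcyclic lactone (its target is not named in the labels). Medium and substrate therefore cannot be told apart. With 1 library per condition no difference between them has a replicate check, no p-value is given, and the 95% intervals cover counting error only.

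LB gave 1783 kept cells with a median of 25418 UMIs (unique molecular identifiers, 1 per captured RNA molecule) and LBPXRS 2705 with a median of 19058. Their barcode lists shared 10 barcodes, of which 8 were kept in both. Levels are given as CPM, the UMIs of a gene in all kept cells of 1 library per 1000000 UMIs there. In such sums, fewer cells with a gene and less RNA per cell cannot be told apart. UMI counts from 3′ ends do not scale with transcript length, but capture differs between genes, so levels of different genes are not ranked as amounts of RNA. Over the 7661 genes that reached a CPM of 10 in LB or LBPXRS, the log2 ratio (LBPXRS over LB) had a median of -0.17, and with TMM scaling (trimmed mean of M values) it was -0.0072, so values of this size carry no direction. The defining pluripotency markers Pou5f1, Sox2 and Nanog were present in both libraries, at 917 CPM summed in LB and 1399 in LBPXRS. LB also held more RNA of the 4 primitive streak markers (167 against 2.22 CPM), the 3 mesoderm markers (115 against 1.52 CPM) and Krt8 and Krt18 (372 against 25.7 CPM). LBPXRS held more of the 3 stress markers (224 against 42.1 CPM) and of Malat1, an RNA retained in the nucleus (9299 against 5694 CPM), while Meg3, another such RNA, was lower (181 against 648 CPM), and the 4 fibroblast markers were low in both (14.1 and 4.50 CPM). The part of these differences in the values below was not tested beyond a comparison of Nanog-positive cells.

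Promoter sequence was set beside the values because genes of this family are known to share sites for NRF1, ETS factors such as GABP, and YY1. RefSeq promoter entries (GRCm38.p6, from 250 bases before to 50 after the start) were found for 71 of the 89 nuclear genes. The NRF1 palindrome, spelled in capitals in the first 4 sequences printed next, was present in 5 of them (7.04%), against 1.07% of 27025 genes with an entry and 2.74% of the 6173 among these that reached a CPM of 10. The ETS letters CCGGAAG, on either strand, were in 28.2% of the 71, against 9.93% of all genes and 24.0% of the expressed ones. The YY1 letters AAGATGGC, on either strand, were in 12.7%, against 3.19% and 6.35%. Of these 9 genes, 8 had their match located, and it began between 23 and 39 bases after the start in each. The ERR letters TCAAGGTCA (for estrogen-related receptors, such as Esrrb), on either strand, were in 2.82%, namely in Atp5g3 and Sdhd, against 0.466% and 0.308%. The hypoxia element ACGTGC, on either strand, was in 7.04%, against 6.68% and 10.3%. A match is a description of the sequence, not evidence of binding.

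The 60-base windows that follow hold the 4 NRF1 matches and the 1 ERR match that lie before the start, each read 5′ to 3′ on the strand of the gene, with the match in capitals (the reverse complement of the ERR letters in Atp5g3). They are Atp5k (chr5:108434415-108434474, minus strand), Cox6a1 (chr5:115349086-115349145, minus strand), Atp5g2 (chr15:102671055-102671114, minus strand), Ndufa11 (chr17:56717677-56717736, plus strand) and, for the ERR match, Atp5g3 (chr2:73911344-73911403, minus strand).
Atp5k: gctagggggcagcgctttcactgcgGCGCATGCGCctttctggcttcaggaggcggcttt
Cox6a1: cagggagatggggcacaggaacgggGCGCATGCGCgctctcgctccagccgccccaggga
Atp5g2: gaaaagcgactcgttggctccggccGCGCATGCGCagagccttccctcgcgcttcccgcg
Ndufa11: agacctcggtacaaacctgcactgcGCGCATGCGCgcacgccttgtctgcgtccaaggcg
Atp5g3: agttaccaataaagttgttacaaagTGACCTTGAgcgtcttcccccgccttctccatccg
The 5 genes with the palindrome had log2 ratios of both signs, namely -0.20 for Atp5k, 0.49 for Cox6a1, -0.04 for Atp5g2, -0.25 for Ndufa11 and 0.26 for Uqcrc1, whose match lies after the start. Atp5g3 had a log2 ratio of -0.53.

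The 100 bases before the start are given for the 3 complex IV genes at least 1.5-fold higher among those that reached a CPM of 10. They are also given for Uqcrfs1 and Uqcrh, the complex III genes that were at least 1.5-fold lower. None of the 5 motifs lay whole within the windows of Cox6b2 (chr7:4753095-4753194, minus strand), Cox5a (chr9:57521132-57521231, plus strand), Cox8a (chr19:7217617-7217716, minus strand) and Uqcrfs1 (chr13:30545317-30545416, minus strand), which says only that these letters are not in these windows; Cox8a held the ETS letters across its start. That of Uqcrh (chr4:116075071-116075170, minus strand) held the ETS letters, in capitals.
Cox6b2: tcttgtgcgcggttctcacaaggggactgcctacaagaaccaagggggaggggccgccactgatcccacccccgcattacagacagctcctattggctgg
Cox5a: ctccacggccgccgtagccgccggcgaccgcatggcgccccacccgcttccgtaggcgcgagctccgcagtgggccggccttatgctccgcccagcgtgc
Cox8a: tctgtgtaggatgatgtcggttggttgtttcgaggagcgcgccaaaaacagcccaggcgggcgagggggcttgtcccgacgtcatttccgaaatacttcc
Uqcrfs1: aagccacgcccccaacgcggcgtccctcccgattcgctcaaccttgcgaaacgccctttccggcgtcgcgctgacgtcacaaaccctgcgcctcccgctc
Uqcrh: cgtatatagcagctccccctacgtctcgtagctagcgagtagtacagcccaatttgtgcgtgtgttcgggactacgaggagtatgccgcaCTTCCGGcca

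Summed over all members, the respiratory chain differed little between the libraries, and the nuclear sum was higher in LBPXRS relative to the mitochondrial sum. Gene by gene this was not seen: the median log2 ratio was -0.029 for nuclear and -0.0030 for mitochondrial genes, and mt-Atp6 carried much of the difference in sums. The 89 nuclear genes summed to 32873 CPM (32820 to 32926) in LB and 35180 CPM (35129 to 35231) in LBPXRS, a log2 ratio of 0.098. The 13 mitochondrial genes summed to 27589 CPM (27540 to 27637) and 24691 CPM (24649 to 24734), a log2 ratio of -0.16. The ratio of nuclear to mitochondrial UMIs was thus 1.19 in LB and 1.42 in LBPXRS, a log2 difference of 0.26 that no scaling of whole libraries can change. With TMM scaling the nuclear ratio became 0.25 and the mitochondrial ratio -0.0062. Cytosolic ribosomal proteins, which supplied 33.2% of LB UMIs and 35.8% of LBPXRS UMIs, had a log2 ratio of 0.11, close to that of the nuclear genes.

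By complex, the nuclear sum of complex IV had the highest ratio, followed by complexes I and II, and complexes III and V the lowest. By the median of its genes complex II was instead the lowest, at -0.23 with 3 of 4 genes below 0, so its place in the sums rests on Sdhb. Only these orders are free of the scaling, since the ratio of complex I is no larger than the shift of all genes. Complex IV summed to 9580 and 11521 CPM (log2 ratio 0.27) and complex I to 8730 and 9764 CPM (0.16). Complex II summed to 538 and 561 CPM (0.061), complex III to 3500 and 3290 CPM (-0.089), and complex V to 9838 and 9404 CPM (-0.065). With TMM scaling the ratios were 0.42 for complex IV, 0.32 for complex I and 0.21 for complex II, and the signs of complexes III and V turned, to 0.065 and 0.089. Within complex IV, Cox5a and Cox8a had the largest differences in CPM, and smaller ones in both directions partly offset each other, with Cox6a1 higher and Cox4i1 lower. Without Cox5a, Cox8a and Cox6b2, chosen after their values were seen, the other 15 summed to 7496 and 7803 CPM, a log2 ratio of 0.058.

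**Figure D1:**
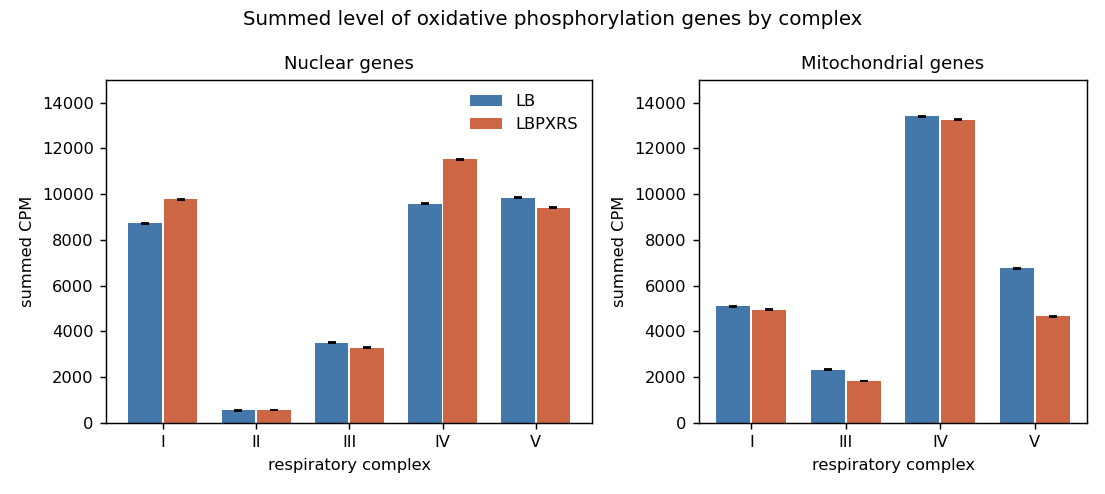
Summed CPM of the nuclear (left) and mitochondrial (right) genes of each respiratory complex in LB and LBPXRS; bars are library sums, 1 library per condition, and error bars are exact Poisson 95% intervals. Nuclear complex IV stands at 9580 CPM in LB and 11521 in LBPXRS, and mitochondrial complex V at 6765 and 4666.

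Gene by gene, few members differed by much. Of the 98 members that reached a CPM of 10 in LB or LBPXRS, 1 was at least 2-fold higher in LBPXRS (7.98% of all 7661 genes) and 3 were at least 2-fold lower (10.4% of all genes). At 1.5-fold, 7 members (7.14%) were higher, against 14.6% of all genes, and 6 (6.12%) lower, against 25% of all genes. With TMM scaling the 1.5-fold counts became 13 higher (19.8% of all genes) and 4 lower (17.7%), so the split between directions depends on the scaling. The 87 nuclear genes whose mean CPM reached 1 had a median log2 ratio of -0.029, with 42 above 0 and 45 below, beside -0.14 for all 12618 such genes. It was 0.12 with TMM scaling.

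**Figure D2:**
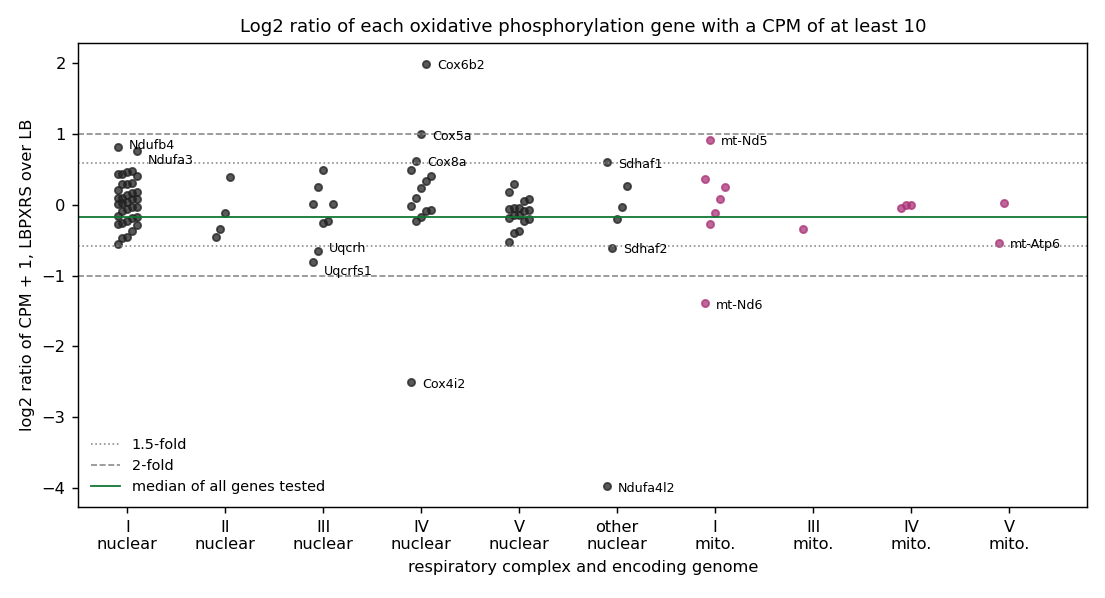
Log2 ratio of CPM + 1, LBPXRS over LB, of each of the 98 members that reached a CPM of 10 in LB or LBPXRS, by complex and genome (1 point per gene; dotted and dashed lines mark 1.5-fold and 2-fold, the green line the median of all genes tested, -0.17). Most points lie inside the dotted lines, with Cox6b2 above them at 1.99 and Cox4i2 and Ndufa4l2 far below at -2.51 and -3.98.

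Within complex I, the entry point for NADH, the nuclear log2 ratios ran from -0.56 to 0.82 with a median of 0.062, and 21 of 36 genes were above 0. Ndufb4, an accessory subunit of the membrane arm, had the highest ratio, with 235 CPM in LB and 415 CPM in LBPXRS (1.77-fold). Ndufa3, another accessory subunit, was next, at 151 and 255 CPM. Ndufb7 had the lowest ratio, at 392 and 266 CPM. Ndufa7, with the most UMIs of these nuclear genes, stood at 654 CPM in LB and 882 CPM in LBPXRS. Among the core subunits that carry the flavin and the iron-sulfur clusters, Ndufs1 was at 26.6 and 18.9 CPM and Ndufv1 at 96.9 and 80.1 CPM. Ndufv2 and Ndufs8, of the same core, were instead at 244 and 282 CPM and at 124 and 136 CPM.

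Complex II, succinate dehydrogenase, also belongs to the citric acid cycle. Its iron-sulfur subunit Sdhb, with the most UMIs of the 4, stood at 245 CPM in LB and 323 CPM in LBPXRS, and its flavoprotein Sdha at 68.4 and 49.5 CPM. The membrane anchors Sdhc and Sdhd were at 89.3 and 82.1 CPM and at 134 and 106 CPM. The subunits of this complex thus differed in both directions, with log2 ratios from -0.46 to 0.40. Of the assembly factors, Sdhaf1 was at least 1.5-fold higher (31.4 and 48.1 CPM) and Sdhaf2, which attaches the flavin to Sdha, at least 1.5-fold lower (27.8 and 17.9 CPM). Over the alternatives the log2 ratio of Sdhaf2 reached -0.42, which is inside 1.5-fold.

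Complex III, cytochrome bc1, held 2 nuclear genes of 8 that were at least 1.5-fold lower, as were 25% of all genes. Uqcrfs1, the Rieske iron-sulfur protein, had 279 CPM in LB (12699 UMIs) and 159 CPM in LBPXRS (8248 UMIs). Uqcrh, the hinge protein that helps dock cytochrome c, had 434 and 277 CPM. Over the alternatives the log2 ratio of Uqcrh reached -0.49, which is inside 1.5-fold. In the other direction, Uqcrb had 371 and 521 CPM, and Uqcr10, with the most UMIs of the nuclear genes, had 834 and 841 CPM. Of the 8 genes 4 were above 0 and 4 below.

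Among the nuclear genes of the larger complexes, those of complex V varied least, with log2 ratios from -0.53 to 0.29. Of these 17 genes 13 were below 0, though 11 of the 17 were above the median of all genes, so this tally depends on the scaling. The lowest of these nuclear genes was Atp5g3 (293 and 202 CPM) and the highest Atp5c1, the gamma subunit of the rotor (428 and 525 CPM). Atp5g1, Atp5g2 and Atp5g3 encode the same mature c subunit of the rotor ring with different import signals. Atp5g1, with the most UMIs of the complex's nuclear genes in LB, supplied 49.0% of the UMIs of the 3 in LB and 50.3% in LBPXRS. Atp5g2 supplied 41.1% and 42.5%, and Atp5g3 9.83% and 7.24%. The make-up of this pool thus differed by less than 3 percentage points for each gene.

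Complex IV, cytochrome c oxidase, held the widest spread, and isoform genes were at its ends. Cox6b2 (chr7:4751792-4753094, minus strand, mm10), known as the testis isoform of the subunit that bridges the dimer, stood at 61.7 CPM (59.4 to 64.0) in LB and at 248.6 CPM (244 to 253) in LBPXRS, 4.03-fold higher (3.87 to 4.20). Its ubiquitous partner Cox6b1 was at 613 and 653 CPM. Cox6b2 accordingly supplied 9.15% of the UMIs of both in LB (8.83 to 9.48) and 27.6% in LBPXRS (27.2 to 28.0). Of the members that reached a CPM of 10 it alone was at least 2-fold higher in LBPXRS, and its log2 ratio was 1.87 when Nanog-positive cells alone were used in both libraries.

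Cox5a, a subunit on the matrix side of the oxidase, was at 783 CPM in LB and 1560 in LBPXRS, a 1.99-fold difference (1.97 to 2.02) that passes 2-fold with TMM scaling. Cox8a was at 1239 and 1910 CPM, 1.54-fold higher (1.53 to 1.56). Cox4i1, the ubiquitous Cox4 isoform, had 1940 and 1724 CPM, a log2 ratio of -0.17, close to the median of all genes. Cox6a2 (chr7:128205435-128206387, minus strand, mm10), the heart and muscle isoform, had 0 UMIs in LB and 343 in LBPXRS (6.62 CPM). With the exact interval around a count of 0 it was at least 81.2-fold higher; 343 UMIs are 100-fold the level of a floor of 3 UMIs in LB. Its partner Cox6a1 had 508 and 711 CPM and still supplied 99.1% of the pair's UMIs in LBPXRS.

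Isoforms on the other side were lower in LBPXRS. Cox4i2 (chr2:152754173-152765037, plus strand, mm10), the lung isoform that hypoxia is known to raise, was at 21.6 CPM (20.2 to 23.0) in LB and 2.97 CPM (2.52 to 3.48) in LBPXRS, 7.26-fold lower (6.12 to 8.66). It supplied 1.10% of Cox4 UMIs in LB and 0.172% in LBPXRS. Ndufa4l2 (chr10:127514967-127517154, plus strand, mm10), a relative of Ndufa4 known as a target of hypoxia-inducible factor, was at 43.0 CPM (41.1 to 45.0) and 1.79 CPM (1.45 to 2.20), 24.0-fold lower (19.5 to 29.8). Ndufa4 itself, a subunit of complex IV, was at 702 and 601 CPM. With Nanog-positive cells alone, Ndufa4l2 kept a log2 ratio of -3.78 while that of Cox4i2 shrank from -2.51 to -0.66.

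Of the other isoform pairs, those of Cox7b and Cox8 include genes that rest on few UMIs. Cox7a1, the heart and muscle isoform, was at 39.4 CPM in LB and 37.5 in LBPXRS, 5.76% and 5.86% of the UMIs of Cox7a1 and Cox7a2 together. Cox7a2 was at 644 and 603 CPM, and Cox7a2l, which joins complexes III and IV into supercomplexes, at 503 and 491 CPM. Cox7b2 had 92 UMIs in LB and 256 in LBPXRS (2.02 and 4.94 CPM), beside 430 and 570 CPM of Cox7b. Cox8b had 1 UMI in LB and 26 in LBPXRS, 22.8-fold by CPM (counting interval 3.75 to 936), and Cox8c had 10 and 9.

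Of the 13 mitochondrial genes, mt-Nd6 and mt-Nd5 had the ratios farthest from 0, followed by mt-Atp6. mt-Nd6 (chrM:13552-14070, minus strand, mm10) is the single member on the light strand of mitochondrial DNA. It had 21.8 CPM (20.4 to 23.2) in LB and 7.66 CPM (6.92 to 8.45) in LBPXRS, 2.84-fold lower (2.53 to 3.20). With Nanog-positive cells alone it no longer counted as 2-fold lower, and over the alternatives its log2 ratio reached -0.88. Its neighbour mt-Nd5 (chrM:11742-13565, plus strand), which overlaps it by 14 bases on the opposite strand, had 95.5 and 181 CPM, 1.90-fold higher (1.83 to 1.97). These neighbours thus stood at opposite ends of the mitochondrial genes, with log2 ratios of -1.39 and 0.92.

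Among the messages with many UMIs, the core of complex IV was level and mt-Atp6 was lower. mt-Co1 had 5198 CPM in LB and 5056 in LBPXRS, mt-Co2 3066 and 3060, and mt-Co3 5134 and 5139. Their log2 ratios lay between -0.040 and 0.0015, or 0.11 and 0.16 with TMM scaling. mt-Atp6 (chrM:7927-8607), part of the proton channel of ATP synthase, had 6735 CPM (6711 to 6759) and 4635 CPM (4616 to 4653), a log2 ratio of -0.54. It accounted for most of the difference in the mitochondrial sum: the other 12 genes had 20854 and 20057 CPM, a log2 ratio of -0.056. mt-Atp8, which overlaps mt-Atp6 by 43 bases on the same strand and shares its message, had 30.0 and 30.7 CPM, so reads of this pair may not be split by gene.

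The rest of the mitochondrial genes lay between these. mt-Cytb, the core of complex III, had 2327 CPM in LB and 1831 in LBPXRS, and mt-Nd1 had 2973 and 2464. mt-Nd2 had 625 and 808 CPM, mt-Nd3 129 and 153, and mt-Nd4 1202 and 1277. mt-Nd4l, which overlaps mt-Nd4 by 7 bases, had 52.2 and 48.1 CPM. Genes of 1 complex did not move as a unit: the 7 of complex I spanned log2 ratios from -1.39 to 0.92 and summed to 5099 and 4939.5 CPM.

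Genes that serve the respiratory chain without being members were read from lists chosen with earlier results known. Genes that maintain and express mitochondrial DNA had a median log2 ratio of -0.51 over 22 tested, beside -0.17 for all genes, with 3 at least 2-fold lower (10.4% of all genes) and 0 at least 2-fold higher (7.98% of all genes). The 3 were Tefm, the mitochondrial transcription elongation factor (43.6 and 13.2 CPM), Elac2, which trims tRNA ends from the precursor (34.1 and 11.04 CPM), and Pnpt1, of the mitochondrial RNA degradation machinery (26.5 and 10.1 CPM). Tfam, which packages mitochondrial DNA, had 79.2 and 55.6 CPM, and Hsd17b10, a subunit of mitochondrial RNase P and the highest of the list, 132 and 256 CPM. The 78 mitochondrial ribosomal proteins had a median of -0.22, with 4 at least 2-fold lower (Mrps31, Mrpl12, Mrpl3 and Mrpl44), a smaller share than the 10.4% of all genes, and 0 higher (7.98% of all genes). The 46 assembly factors had a median of -0.076, with 0 at least 2-fold higher (7.98% of all genes) and 0 lower (10.4%). At 1.5-fold, 2 were higher (14.6% of all genes) and 6 lower (25%). Cox14 (133 and 235 CPM) was the highest and Coa3 (log2 ratio -0.92), which likewise acts on newly made mt-Co1, the lowest.

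The 4 tested genes of a further list outside the symbol rule were close to LB or lower. Among them, Ndufab1 had 396 and 395 CPM, Cyc1 303 and 300, and cytochrome c (Cycs) 310 and 218. Of 18 citric acid cycle genes (median -0.20), Idh2, the NADP-dependent mitochondrial isocitrate dehydrogenase, was the one at least 2-fold higher (7.98% of all genes), at 45.9 and 161 CPM. Of these genes 0 were at least 2-fold lower (10.4% of all genes), and Dlst was the lowest. Of 18 carriers and redox genes (median -0.27), Chchd10 (1034 and 3950 CPM), Ucp2 (61.7 and 171 CPM) and the superoxide dismutase Sod2 (251 and 609 CPM) were at least 2-fold higher, as were 7.98% of all genes. The adenine nucleotide carrier Slc25a4 (746 and 321 CPM) and the prohibitin Phb (241 and 97.8 CPM) were at least 2-fold lower, as were 10.4% of all genes.

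Of 12 tested regulators known to act on these genes, 2 were at least 1.5-fold higher (14.6% of all genes) and 2 at least 1.5-fold lower (25% of all genes). Nrf1 had 42.0 CPM in LB and 37.9 in LBPXRS, Gabpa 21.2 and 18.6, Gabpb1 32.0 and 33.5, Esrra 11.6 and 11.2, Hif1a 33.2 and 32.6, and Stat3 32.9 and 29.4. Yy1 had 50.2 and 33.6 CPM, Pprc1 44.6 and 25.4, Mycn 113.5 and 83.7, and Ppard 8.31 and 13.1. Esrrb had 23.1 and 62.6 CPM and Myc 13.2 and 0.154 CPM. These were the 2 that passed 2-fold, Esrrb upward (7.98% of all genes) and Myc downward (10.4% of all genes). Ppargc1a had 0 UMIs in both libraries, and Ppargc1b and Ppara were under 10 CPM in both.

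To follow the genes across cells within a library, UMIs were drawn at random from each cell down to 5000, and it was called positive for a marker with at least 1 UMI of it. A single UMI can come from free RNA in the droplet, whose share was not estimated, so these are cells with a UMI of the marker and not cell types. This left 1733 LB and 2621 LBPXRS cells, and groups of under 50 cells are not given. The summed nuclear level varied little between such groups: the log2 ratio of positive to negative cells lay between -0.073 (Krt8, LBPXRS) and 0.066 (Eomes, LB) over 30 groups. In LB, 33343 CPM were measured in 641 Sox2-positive cells and 33100 in the others, 34186 in 140 Mesp1-positive cells and 33099 in the others, and 33029 in 241 Hand1-positive cells and 33214 in the others. In Nanog-positive cells the nuclear level was 33456 CPM in LB (491 cells) and 35361 in LBPXRS (1430 cells), a log2 ratio of 0.080, a size that carries no direction here.

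The summed mitochondrial level varied more. In LB it was 23421 CPM in Mesp1-positive cells (Mesp1 marks nascent mesoderm) against 29016 in the others, a log2 ratio of -0.31, and 23359 against 28964 in 124 cells positive for the stress gene Ddit3 (-0.31). Median depth was 21004 UMIs in Mesp1-positive cells and 26190 in the others before thinning. In 995 cells positive for Utf1, a gene of pluripotent cells, it was 30003 against 26644 CPM (0.17). For Utf1 in LBPXRS the log2 ratio was 0.038 and turned sign in an alternative. Dnmt3b had ratios of 0.095 in LB and 0.20 in LBPXRS (72 cells), and Lin28a 0.0088 and 0.14. In LBPXRS the mitochondrial level was 21021 CPM in 220 Gata2-positive cells against 26622 in the others (-0.34), and 22163 against 26231 CPM in 51 Krt8-positive cells (-0.24). Ddit3-positive cells were also lower there, at 24389 against 27286 CPM in 1024 cells (-0.16). Cells with Nanog or Sox2 were higher in both libraries, with log2 ratios from 0.077 to 0.11, though in the alternatives these went as low as 0.014 (Nanog) and 0.038 (Sox2) in LB and 0.038 and 0.027 in LBPXRS. For Klf4 the ratios were 0.10 in LB and 0.086 in LBPXRS, where it turned to -0.033 with at least 2 UMIs of the marker in the whole cell, and for Esrrb they were 0.084 and -0.0091.

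**Figure D3:**
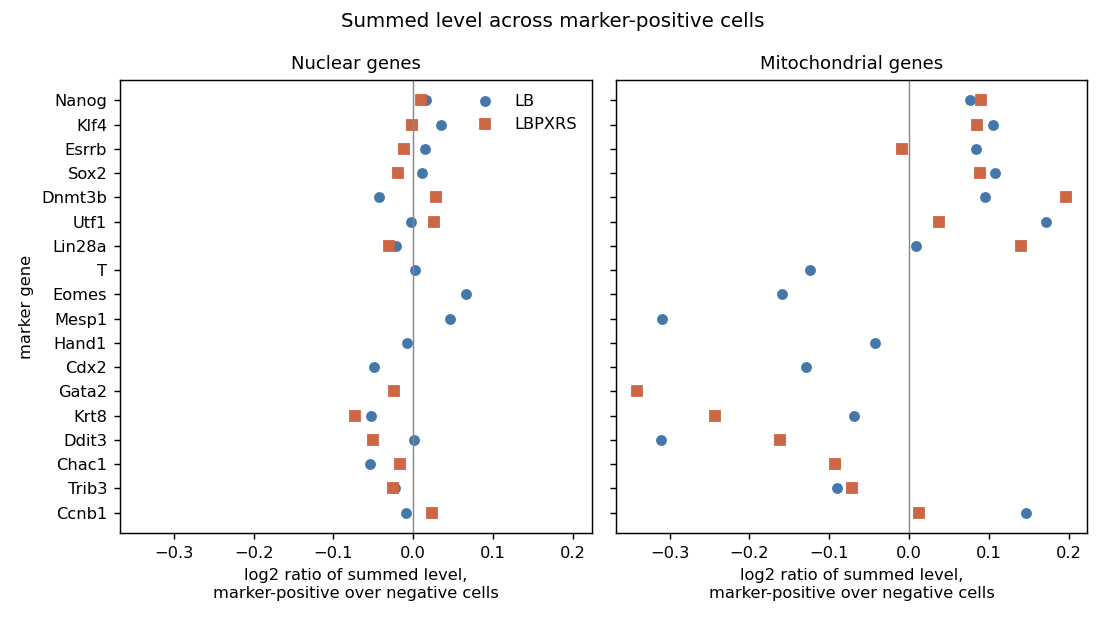
Log2 ratio of the summed nuclear (left) and mitochondrial (right) level in marker-positive over negative cells of LB and LBPXRS (1 point per marker and library with at least 50 cells in each group; cells are not replicates, so no error is drawn). The nuclear points lie between -0.073 and 0.066, and the mitochondrial points reach -0.34 for Gata2.

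Single complexes differed a little more between such groups than the nuclear sum. In LB, complex I was at 9692 CPM in Mesp1-positive cells and 8764 in the others, a log2 ratio of 0.15, and at 9282 and 8743 in 312 T-positive cells (0.086). In Sox2-positive cells it was lower, at 8570 against 8998 CPM (-0.070). Counting intervals leave out the spread between cells, so whether they overlap says little about such differences. Complex V was at 10061 against 9755 CPM in Sox2-positive cells and at 9708 against 9882 in Mesp1-positive cells, where the intervals overlapped. Complex II, with far fewer UMIs, was at 517 against 567 CPM in Sox2-positive cells (-0.13) and at 629 against 544 in Eomes-positive cells (0.21), and complex III had a log2 ratio of -0.15 in Cdx2-positive cells.

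Single members differed between marker-positive and negative LB cells, several isoform genes among them. Sox2-positive cells had 1 of 98 members at least 1.5-fold higher (6.77% of all genes) and 3 lower (16.4% of all genes). Mesp1-positive cells had 3 higher (14% of all genes) and 4 lower (9.34% of all genes), and Hand1-positive cells had 2 higher (17.3%) and 2 lower (7.65%). In each of these groups the members' share past this size was below that of all genes, and Cox4i2 and Cox7a1 passed it in all 3, in opposite directions.

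Cox4i2 was low in Sox2-positive and Nanog-positive LB cells and high in those positive for Mesp1, Hand1, Cdx2, Eomes or Krt8, but not in those positive for T (18.6 against 22.2 CPM). It had 4.13 CPM in Sox2-positive cells (3.23 to 5.20) and 32.5 in the others, but 79.9 CPM in Mesp1-positive cells (70.2 to 90.6) against 17.4, and 64.7 in Hand1-positive cells (58.6 to 71.3) against 14.6. Its share of Cox4 UMIs was 0.204% in Sox2-positive, 3.85% in Mesp1-positive, 3.32% in Hand1-positive, 3.11% in Cdx2-positive and 0.984% in T-positive cells. Its level in LBPXRS (2.97 CPM) lay just under the interval of the Sox2-positive LB cells.

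Cox7a1 had the opposite pattern except in T-positive LB cells, where it was also lower, at 3.09% of Cox7a UMIs beside 5.76% in all kept LB cells. It was at 55.4 CPM in Sox2-positive LB cells (51.9 to 58.96) and 29.4 in the others, and at 13.3 CPM in Hand1-positive cells (10.6 to 16.5) against 43.7. Its share of Cox7a UMIs was 8.4% in Sox2-positive and 1.98% in Hand1-positive cells. Atp5g1 followed the same direction, with 1802 CPM in Sox2-positive cells against 1248, and 963 CPM in Mesp1-positive cells against 1497. In the c subunit pool this showed as an Atp5g1 share of 53.7% in Sox2-positive and 42.2% in Hand1-positive cells, while that of Atp5g3 was 7.98% and 13.9%.

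Ndufa4l2 was higher in Mesp1-positive and Eomes-positive cells, and close to its library level in Hand1-positive cells. It had 99.0 CPM in Mesp1-positive cells (88.1 to 111) against 39.0, 82.3 CPM in 103 Eomes-positive cells against 40.8, and 39.5 CPM in Hand1-positive cells against 43.6. It was also at 94.5 CPM in Ddit3-positive LB cells against 39.1. mt-Nd6 was at 43.7 CPM in Mesp1-positive cells against 19.98 and at 40.5 in Hand1-positive cells against 18.5, but at 13.2 in Sox2-positive cells against 26.8. In Mesp1-positive cells mt-Nd6 was therefore higher while the mitochondrial sum was lower.

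Cox6b2 differed less between these groups than between the libraries. In LB it was at 65.7 CPM in Sox2-positive cells against 59.4, 67.4 in Mesp1-positive cells against 61.4, and 42.4 in Hand1-positive cells against 64.9. In LBPXRS it lay between 240 and 293 CPM in cells positive for Sox2, Nanog, Klf4, Gata2, Krt8 or Ddit3. The highest of these LB groups thus lay far under the lowest LBPXRS group.

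**Figure D4:**
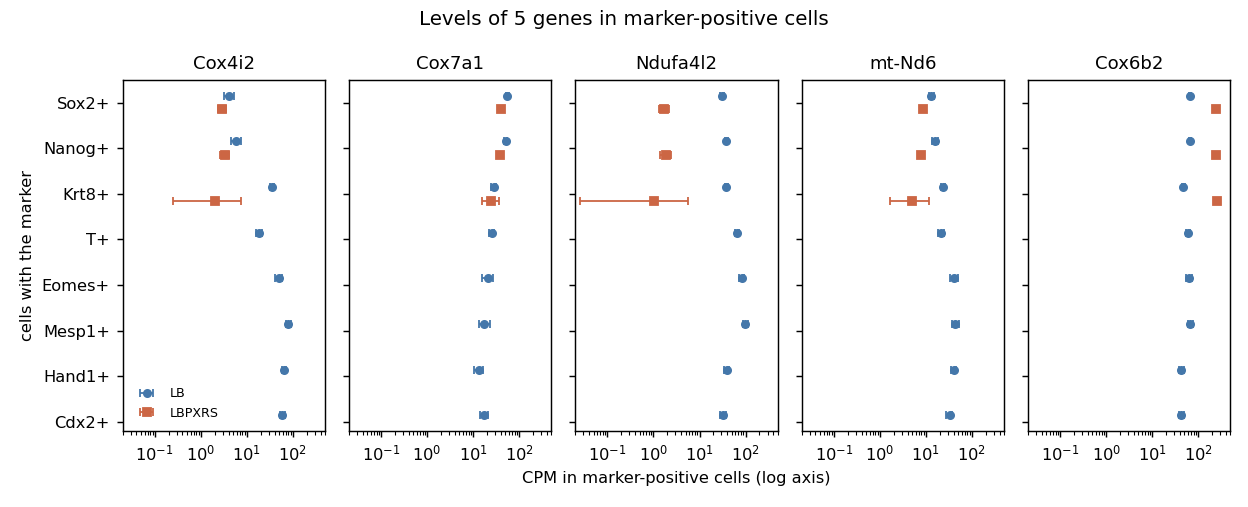
CPM of Cox4i2, Cox7a1, Ndufa4l2, mt-Nd6 and Cox6b2 in cells positive for 8 markers in LB and LBPXRS (log axis; bars are exact Poisson 95% intervals; a library is absent where it had under 50 such cells). In LB, Cox4i2 stands at 4.13 CPM in Sox2-positive and 79.9 in Mesp1-positive cells, Cox7a1 at 55.4 and 17.4, and Cox6b2 at 65.7 and 67.4 CPM, with 42.4 CPM in Hand1-positive cells and higher values throughout in LBPXRS.

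Within LBPXRS, members past 1.5-fold were no more frequent than all genes in the 3 groups given here, and in Sox2-positive cells so few genes passed that a count of 0 says little. Of 95 members tested, 0 were at least 1.5-fold higher or lower in Sox2-positive cells (0.0579% and 0.464% of all genes) or in Gata2-positive cells (3.3% and 5.62%). In Krt8-positive cells 1 was higher (9.83% of all genes), the assembly factor Sdhaf2, and 1 lower (4.08%), Cox7a1 at 24.6 CPM (15.7 to 36.6) against 37.9. Cox6a2 was found across these groups, at 6.24 CPM in Sox2-positive cells and 5.07 in Gata2-positive cells, and at 9.40 CPM in Ddit3-positive cells (8.12 to 10.8) against 4.64.

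From cell to cell, the nuclear genes varied less than the mitochondrial ones. A thinned LB cell held a median of 165 nuclear UMIs (quartiles 151 and 179) and 137 mitochondrial UMIs (109 and 167) per 5000. An LBPXRS cell held 175 (158 and 192) and 128 (93 and 163). The coefficient of variation of the nuclear count was 0.147 in LB and 0.156 in LBPXRS, where counting alone gives 0.0763 and 0.0740. That of the mitochondrial count was 0.436 and 0.480, where counting alone gives 0.0825 and 0.0863. The median ratio of nuclear to mitochondrial UMIs per cell was 1.21 in LB and 1.40 in LBPXRS.

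The nuclear and mitochondrial counts were weakly related across cells. As a description over cells of 1 library, which share depth by construction, Spearman's rho was 0.068 over 1733 LB cells and 0.14 over 2621 LBPXRS cells (Pearson's r 0.14 and 0.24), or 0.088 in LBPXRS without barcodes under 0.5% mitochondrial UMIs. With the nuclear count taken as a share of UMIs that were not mitochondrial, rho was 0.14 in LB and 0.21 in LBPXRS. With cells ordered by mitochondrial count and cut into 5 equal parts, the median nuclear count of the lowest and the highest part was 164 and 168 in LB and 165 and 175 in LBPXRS. Nuclear counts of different complexes went together more, with rho between complexes I and IV of 0.29 in LB and 0.38 in LBPXRS. The nuclear count and the ribosomal protein count had a rho of -0.36 in LBPXRS and -0.025 in LB; such counts are shares of 1 fixed total.

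**Figure D5:**
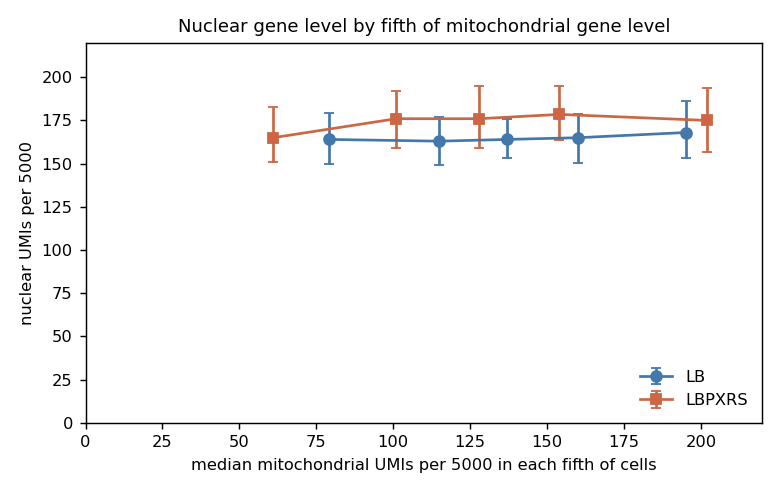
Nuclear UMIs per 5000 (median, with quartiles as bars) in 5 equal parts of the cells ordered by mitochondrial UMIs per 5000, in 1733 LB and 2621 LBPXRS cells. The medians stay between 163 and 168 in LB and between 165 and 178.5 in LBPXRS, where the part with the fewest mitochondrial UMIs is the lowest.

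Barcodes with under 0.5% mitochondrial UMIs numbered 168 of the kept cells in LBPXRS and 32 in LB; mitochondrial values chose them, so nuclear genes alone are read. Per 1000000 UMIs that were not mitochondrial, their nuclear level in LBPXRS was 31187 (30952 to 31424) against 36287 in the other cells, a log2 ratio of -0.22, with each of complexes I, III, IV and V lower. In LB the values were 33643 (32821 to 34480) and 33806, at median depths of 4691 and 25575 UMIs.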

How the data were processed

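Single cells were captured with 10x Genomics 3′ version 2 chemistry, per the labels' protocols. The authors deposited raw UMI counts per gene and barcode, made with Cell Ranger 4.0.0 and aligned to mm10, per the submitters' processing notes; the settings of cell calling and the annotation are not given in the sources used here. Barcodes with fewer than 1000 genes or over 10% mitochondrial UMIs were left out (225 of 2008 in LB, 406 of 3111 in LBPXRS), and kept cells held 45490517 and 51832444 UMIs.

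UMIs were summed over kept cells and scaled to 1000000 (CPM). Ratios are on the log2 scale after adding a pseudocount of 1 CPM to both libraries, which understates changes of low genes; ratios of sums carry no pseudocount. Size calls needed a CPM of 10 or more in LB or LBPXRS. Intervals are exact Poisson or Clopper-Pearson at 95%. Cells were thinned to 5000 UMIs (seed 7) for marker-positive groups, and the UMIs of those groups' whole cells were used for single genes. Scrublet in scanpy 1.11.5 marked 12 LB and 14 LBPXRS cells as doublets, so few that doublets may have been missed; they were kept. TMM factors came from edgeR 4.0.16, and scripts ran in Python 3.11.15 with scipy 1.17.1. The calls and intervals were tested on simulated counts that held counting error alone, so the test does not cover variation between cells or libraries.

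Coordinates are from GENCODE M21 (GRCm38, the mm10 assembly) and promoters from RefSeq (GRCm38.p6), matched by symbol. The last 400 bases of each member's transcripts were compared with all GENCODE M21 transcripts by blastn 2.17.0. At 95% identity over at least 100 bases, 23 of 102 members had a copy, mostly pseudogenes, including mt-Nd2, mt-Nd3, mt-Nd4l, mt-Co1, mt-Co2, mt-Co3 and mt-Atp6; Cox4i2, Cox6b2, Cox5a, Cox8a and Ndufa4l2 had none. Exons of 5 nuclear members overlap another gene on the same strand (Ndufb2, Ndufb8, Ndufb9, Atp5g2 and Atp5o), so their counts are less certain.

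Members, gene lists, markers, motifs and the rule for named genes were chosen with earlier results of these data known. Named genes were all mitochondrial members, the highest, lowest and most abundant of each complex, those past 2-fold and the isoform pairs; other members named here were chosen after their values were seen.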

Additional observations from a re-analysis of the deposited data

Results flagged for a closer look

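Oxidative phosphorylation RNA was also present in barcodes left out of the kept cells, which enter only the alternatives with fewer filters. In the 61 LB barcodes left out for having under 1000 genes, the nuclear genes stood at 29811 CPM (28473 to 31195), beside 32873 in the kept cells. In the 286 such LBPXRS barcodes they stood at 32797 CPM (32133 to 33471), beside 35180. Mitochondrial genes in the same barcodes were at 20908 CPM in LB and 6660 CPM in LBPXRS. Median depth was 918 and 900 UMIs. In the 164 LB and 120 LBPXRS barcodes left out for over 10% mitochondrial UMIs, the nuclear genes were instead above the kept cells, at 35570 and 44511 CPM.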

How the results depend on the processing

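No paired analysis was possible because each condition has 1 library and the labels carry no replicate numbers. Log2 values here are LBPXRS over LB. TMM scaling gave 0.25 for the nuclear sum, -0.0062 for the mitochondrial sum and 0.12 for the nuclear median, whose sign turned. With it 3 members were at least 2-fold higher (10.2% of all genes) and 13 at least 1.5-fold higher (19.8% of all genes). The share of all genes was not computed for the settings below, so their counts of members have no such comparison. Ribosomal protein UMIs left out of the denominator gave 0.16, -0.10, a median of 0.029, again with the sign turned, and 3 members 2-fold higher; mitochondrial UMIs left out gave 0.094 and -0.16. Without barcodes under 0.5% mitochondrial UMIs the sums were 0.11 and -0.11, their difference (nuclear against mitochondrial) 0.21, the median -0.014, and 2 members were 2-fold higher. Without the filter on mitochondrial share the mitochondrial sum was -0.20 and the difference 0.29; with all barcodes they were -0.21 and 0.31. Means of per-cell shares gave 0.086, -0.14, a difference of 0.22, a median of -0.016 and a spread between the highest and lowest nuclear complex of 0.33, beside 0.36 as reported. Without the 5% deepest cells these were 0.091, -0.14, 0.23 and, for the spread, 0.35. Without members on chromosomes 8 and 11 the nuclear sum was 0.15, the difference 0.31, the median -0.00293 and the spread 0.44. Nanog-positive cells alone gave 0.091, a difference of 0.25, a median of 0.00372, whose sign turned, and 1 member 2-fold and 3 members 1.5-fold lower. The largest nuclear difference between marker-positive and negative cells was Krt8 in LBPXRS as reported (log2 -0.073; -0.040 after thinning to 10000 UMIs, too few cells with at least 2 UMIs). It was Mesp1 in LB (0.065) with at least 2 UMIs in the whole cell and Eomes in LB (0.058) after thinning to 10000 UMIs. Mitochondrial differences changed sign in at least 1 of 2 settings for Klf4 (-0.033), Utf1 (-0.057) and Ccnb1 (-0.080) in LBPXRS and Chac1 (0.023) in LB, and nuclear ones, all small, for 5 groups. Leaving out barcodes under 0.5% mitochondrial UMIs lowered the LBPXRS rho to 0.088. For barcodes nearly without mitochondrial RNA, a limit of 1% gave -0.20 in LBPXRS and per-cell means -0.047 in LB. No result past 1.5-fold changed sign in the alternatives. Most of the 1559 alternative values belong to smaller ratios, correlations or counts, which this rule could not mark. Several of the smaller ratios did turn sign, as given above. The other causes of these shifts were not tested. A pseudocount of 0.1 moved Cox6a2 to 6.07 and Cox4i2 to -2.82. Depth limits the low isoforms: Cox8b and Cox8c rest on at most 26 UMIs in a library.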
